A study of Mus musculus with 8 samples.

Results

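The 6 STAT genes described here were taken by symbol from a table of 24506 genes, counted in bulk RNA sequencing libraries of mouse T-cell progenitors. They are Stat5a, Stat5b, Stat3, Stat2, Stat4 and Stat6, and all 6 were among the 13775 genes that had enough reads to be tested. The study asked which genes depend on STAT5 before and after commitment to the T lineage. Bone-marrow progenitors were cultured overnight with IL-7, Flt3 ligand and SCF, infected with guide RNA retroviruses and grown for 6 days on OP9-DLL1, stromal cells that present the Notch ligand DLL1, in medium with 10 ng/ml of IL-7 and 10 ng/ml of Flt3 ligand. Lineage-negative, infected, CD25+ cells were then sorted into an mCherry-positive gate, which the labels call post-commitment (late), and an mCherry-negative gate, which they call pre-commitment (early).

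The 4 groups were late sgStat5, late control, early sgStat5 and early control, with 2 libraries in each. The sgStat5 cells received 3 guides against Stat5a and 3 against Stat5b, and the control cells received control guides, whose target the labels do not state. All groups shared the genotype B6.CRISPR-Cas9;Bcl2;Bcl11b-mCherry/mCherry, so the control cells too carried Cas9, the Bcl2 transgene and the reporter of Bcl11b, a gene that is switched on at commitment. The cells are a mixed population in which Cas9 cuts need not be complete, and a frame-shifted gene can still be transcribed. The series text calls the mCherry-positive cells both reporter-positive and reporter negative. Bcl11b RNA stood at 797 and 415 CPM (counts scaled to library size) in late sgStat5, 542 and 219 in late control, 132 and 70.1 in early sgStat5 and 132 and 45.6 in early control libraries. It was thus higher in the late library of every pair with the same guides and replicate number. Within the late gate it was also higher in the sgStat5 than in the control library of each replicate number. The part of that difference in the guide effects of the late gate was not tested.

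STAT proteins wait in the cytoplasm until a cytokine binds its receptor and the receptor's Janus kinases (JAKs) phosphorylate both the receptor tails and the STATs docked there. Phosphorylated STATs pair through their SH2 domains, enter the nucleus and bind short palindromic DNA elements, and the SOCS proteins that they induce shut the receptor down. STAT5A and STAT5B act downstream of IL-7, the cytokine on which thymic progenitors rely for survival, STAT3 downstream of gp130 receptors such as that of IL-6, STAT2 downstream of type I interferon, STAT4 downstream of IL-12 and STAT6 downstream of IL-4.

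Stat5b, Stat5a and Stat3 lie side by side on chromosome 11. In mm10 coordinates counted from 1, Stat5b spans 100780731 to 100850585 on the minus strand, Stat5a 100859351 to 100885169 on the plus strand and Stat3 100886806 to 100939540 on the minus strand. Stat6 (127642986 to 127660987) and Stat2 (128270498 to 128292853) lie on the plus strand of chromosome 10, and Stat4 (52008240 to 52107189) on the plus strand of chromosome 1. All 6 are protein coding. In the GENCODE M21 annotation Stat3 reaches farther than in the count table and shares 72 exonic bases, 100885098 to 100885169, with the end of Stat5a on the other strand. Stat6 shares 40 exonic bases with Nab2 on the other strand, and Stat4 shares 1033 of its 3872 exonic bases with the processed transcript Gm28177 on the same strand. No strand setting is given for the counting, so reads in these stretches can belong to either gene.

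Stat5a and Stat5b are close copies. Part of the longest stretch in which they cannot be told apart is shown, because both were targeted and both are read out by their RNA. Of the 3839 windows of 50 bases in the Stat5a transcript, 608 (15.8%) also occur in that of Stat5b, as do 608 (26.1%) of the 2330 windows in its coding sequence. No other pair of the 6 transcripts shared such a window. The longest identical run was 324 bases, at 904 to 1227 of the Stat5a and 907 to 1230 of the Stat5b transcript (GENCODE M21), inside the coding sequence of both. Its first 120 bases follow, and then the edge of the run in each gene (Stat5a 1204 to 1299, Stat5b 1207 to 1302), with capitals at the 1 base that differs.
Stat5a and Stat5b, start of the run: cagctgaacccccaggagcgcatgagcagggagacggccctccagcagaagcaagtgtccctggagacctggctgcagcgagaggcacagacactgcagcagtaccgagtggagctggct
Stat5a, edge of the run: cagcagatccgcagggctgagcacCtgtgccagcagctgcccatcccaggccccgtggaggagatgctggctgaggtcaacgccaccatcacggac
Stat5b, edge of the run: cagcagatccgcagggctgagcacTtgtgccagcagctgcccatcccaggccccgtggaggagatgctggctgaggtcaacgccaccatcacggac
Shared windows also lie outside the run, as after the 1 base that differs. A read that falls wholly in the run or in another shared stretch has no gene of its own, and the file headers do not say how such reads were assigned.

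The promoters of Stat2 and Stat4 are shown because these members differed between the gates. For Stat4, which had more than 1, the promoter with a motif match is printed. The 250 bases before each start came from RefSeq (GRCm38.p6), in which the 6 genes had 9 start sites. They were searched on both strands for GAAANNGAAA, the core of the interferon-stimulated response element bound by STAT2 with IRF9 and also by other IRF proteins, and for TTCNNNGAA, the gamma-activated site bound by STAT pairs. The first motif occurred in 1 window of Stat2 (chr10:128270248-128270497, plus strand) and 1 of Stat4 (chr1:52007990-52008239, plus strand), starting 222 and 97 bases before the start, and is printed in capitals. The other window of Stat4 (chr1:51986898-51987147, plus strand) held neither motif and is not printed.
Stat2: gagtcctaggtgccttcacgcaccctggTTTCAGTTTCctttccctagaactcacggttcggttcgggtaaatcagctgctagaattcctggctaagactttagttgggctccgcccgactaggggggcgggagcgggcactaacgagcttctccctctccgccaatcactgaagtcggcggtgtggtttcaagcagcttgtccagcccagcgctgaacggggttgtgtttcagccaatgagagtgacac
Stat4: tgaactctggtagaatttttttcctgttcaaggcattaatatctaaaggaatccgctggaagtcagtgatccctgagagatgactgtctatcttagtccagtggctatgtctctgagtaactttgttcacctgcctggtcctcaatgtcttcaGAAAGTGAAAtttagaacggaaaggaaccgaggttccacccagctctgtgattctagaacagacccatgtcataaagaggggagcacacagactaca
Of 32851 mouse promoter windows of this length, 978 (2.98%) held the first motif. The second was found in 0 of the 9 windows of the 6 genes and in 2306 (7.02%) of all windows. A match describes the letters only.

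Total counts per library ran from 22146490 to 31209177. Replicate 1 libraries had next to no Xist RNA and replicate 2 libraries had 1390 CPM or more, in every group, so the replicate numbers mark different cells, and libraries with the same number deviated together. For the 6 STAT genes, the value with the replicate number in the model as a block is given where it changed the call, and for most other lists the count over both gates. The 11 T-progenitor markers were all detected in every group, with summed levels of 6180 to 7040 CPM in late sgStat5, 6450 to 8260 in late control, 4860 to 5170 in early sgStat5 and 5430 to 6300 in early control libraries. The list holds Bcl11b and Il2ra (CD25), on which the cells were sorted. Il2ra alone stood at 1370 and 1890 CPM in late sgStat5, 2950 and 3080 in late control, 1980 and 2160 in early sgStat5 and 3150 and 2890 in early control libraries. The median log2 fold change of the list with sgStat5 was 0.36 in the late and 0.14 in the early gate, against the direction of the early sums. Log2 fold changes and adjusted p-values are from edgeR over all 13775 genes, called at an adjusted p under 0.05, with SE for the standard error. Whether the replicates were separate cultures or separate animals is not in the labels, so each p-value reflects the spread of these libraries alone. Early and late libraries with the same guides and replicate number may also have been sorted from the same culture. The tests over both gates, the exact permutation tests and the counts of pairs treat these libraries as independent, which the labels do not settle.

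With sgStat5, the RNA of both targeted genes fell and that of Stat3 rose. Scaled to transcript length, Stat3 took the place of Stat5a as the most abundant of the 6 genes, an order that depends on the transcripts chosen. In mean CPM, without that scaling, Stat3 was already above Stat5a in early control libraries (290 against 257). In late control libraries it was below (238 against 248). Stat2 was higher with sgStat5 only in part of the tests, and Stat4 and Stat6 were not called. Between gates, Stat2 and Stat4 were higher after commitment, in a test over both guide arms. Because these are bulk samples, fewer cells that express a gene and less RNA per cell cannot be told apart.

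The targeted genes come first, as a check of the labels. Stat5a stood at 23.9 and 22 FPKM (reads scaled to transcript length and to library size) in late sgStat5 and 50.5 and 46.6 in late control libraries. Early libraries had 21.4 and 20.5 FPKM with sgStat5 and 50.0 and 51.6 with control guides. In both gates the sgStat5 libraries lay below the control libraries without overlap. Stat5a fell by 1.15 on the log2 scale in the late gate (SE 0.08, edgeR adjusted p = 0.00451) and fell by 1.29 in the early gate (SE 0.08, edgeR adjusted p = 0.0112). The early call was lost without early control replicate 1 (adjusted p = 0.0717), early control replicate 2 (0.0559) or early sgStat5 replicate 2 (0.0611), where Stat5a fell by 1.28 to 1.29.

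Stat5b stood at 23.5 and 20.3 FPKM in late sgStat5 and 40.7 and 37.0 in late control libraries. In the early gate it stood at 21.5 and 19.1 FPKM with sgStat5 and 36.7 and 36.9 with control guides. Here too the groups did not overlap in either gate. Stat5b fell by 0.89 in the late gate (SE 0.10, edgeR adjusted p = 0.00876) and fell by 0.86 in the early gate (SE 0.10, edgeR adjusted p = 0.0280). The late call was lost without late sgStat5 replicate 2 (adjusted p = 0.0528), and the early call without any 1 of the 4 early libraries (adjusted p = 0.166 to 0.218). With the replicate block, Stat5a and Stat5b were called in both gates whichever library was left out.

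Within pairs of libraries of the same gate and replicate number, the sgStat5 library kept 39.7 to 47.3% of the control FPKM for Stat5a and 51.8 to 58.6% for Stat5b. The ratio of Stat5a to Stat5b FPKM was 1.02 and 1.08 in late sgStat5, 1.24 and 1.26 in late control, 0.996 and 1.07 in early sgStat5 and 1.36 and 1.40 in early control libraries. Stat5a was thus the more abundant in control libraries, and in sgStat5 libraries the copies were near equal. The log2 ratio was 0.34 lower in sgStat5 than in control libraries, and lower in 4 of 4 pairs. An exact two-sided permutation test within gates gave p = 0.0556, the smallest its 36 arrangements can give. The FPKM values of both genes together were 47.4 and 42.3 in late sgStat5, 91.3 and 83.6 in late control, 42.9 and 39.6 in early sgStat5 and 86.7 and 88.5 in early control libraries. On the log2 scale that sum fell by 1.03, in 4 of 4 pairs (exact permutation p = 0.0556, again the smallest possible). Reads of the shared run and of the other shared stretches can move between the copies and so can affect the ratio, and this was not tested.

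**Figure D1:**
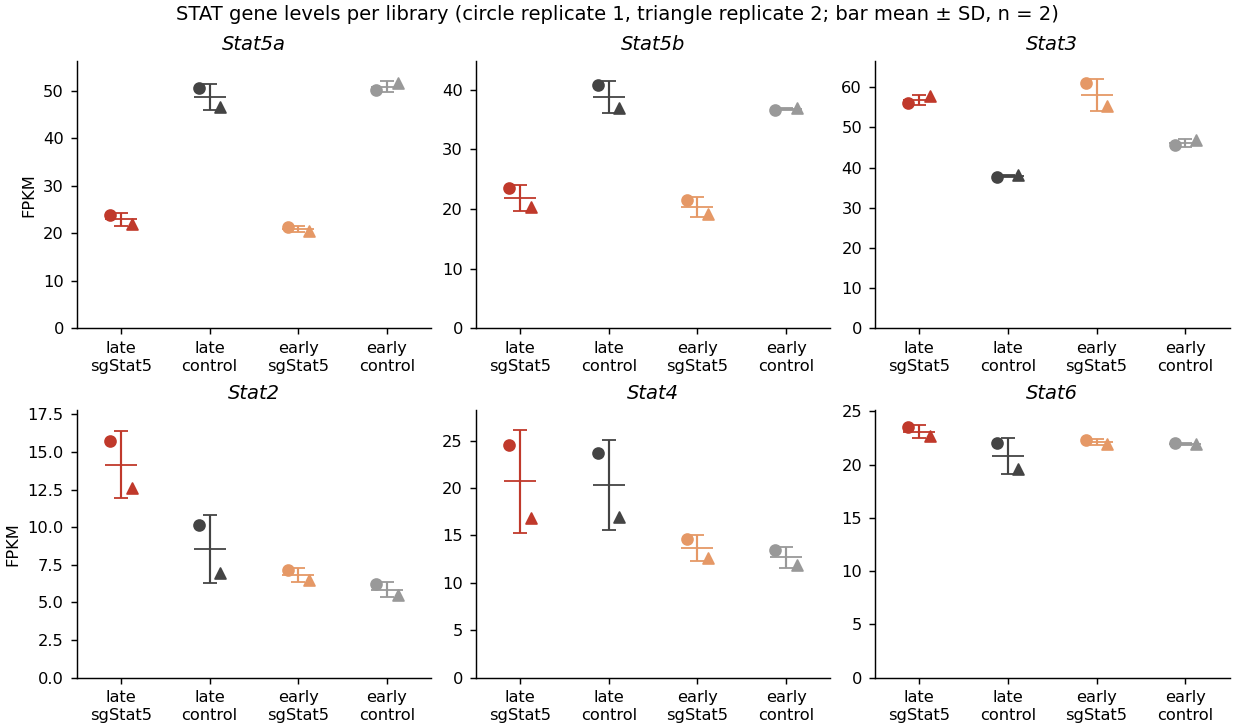
FPKM of each of the 6 STAT genes in every library, in late sgStat5, late control, early sgStat5 and early control groups, with circles for replicate 1, triangles for replicate 2 and bars for the mean and SD of 2 libraries. Stat5a and Stat5b are lower and Stat3 is higher in sgStat5 than in control libraries of the same gate, while Stat2 and Stat4 are higher in the late gate and Stat6 lies between 19.6 and 23.5 FPKM throughout.

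STAT3 shares with STAT5 the choice of similar DNA elements and is the member activated by gp130 cytokines. Stat3 stood at 56.0 and 57.8 FPKM in late sgStat5 and 37.7 and 38.1 in late control libraries. Early libraries had 60.9 and 55.2 FPKM with sgStat5 and 45.5 and 46.9 with control guides. All 4 sgStat5 libraries lay above all 4 control libraries, at 118 to 152% of the control library of the same gate and replicate number. Stat3 rose by a log2 fold change of 0.53 in the late gate (SE 0.08, edgeR adjusted p = 0.0216). In the early gate it was 0.33 (SE 0.08, edgeR adjusted p = 0.257), and 0.33 with the replicate block (SE 0.07, adjusted p = 0.0443). Over both gates together it rose by 0.43 (SE 0.05, edgeR adjusted p = 0.00861).

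The size of the Stat3 change hardly moved when libraries were left out, while its call did. In the late gate the fold change was 0.50 to 0.56 with any 1 of the 8 libraries left out, and it was called in 0 of these 8 fits (edgeR adjusted p = 0.0501 to 0.120). With the replicate block it was called in 8 of 8. Over both gates the call was lost without early control replicate 1 (edgeR adjusted p = 0.0608), early control replicate 2 (0.0587) or early sgStat5 replicate 1 (0.0525), and was kept with the block in 8 of 8. The early call with the block was lost in 8 of 8 (adjusted p = 0.0755 to 0.400).

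STAT2 works with the DNA-binding factor IRF9 in the complex that carries type I interferon signals. Stat2 stood at 15.7 and 12.6 FPKM in late sgStat5 and 10.1 and 6.95 in late control libraries. In the early gate it stood at 7.16 and 6.50 FPKM with sgStat5 and 6.20 and 5.47 with control guides. The sgStat5 and control libraries did not overlap in either gate, and the 2 highest values of the series were those of the late sgStat5 libraries. The log2 fold change with sgStat5 was 0.67 in the late gate (SE 0.20, edgeR adjusted p = 0.232) and 0.22 in the early gate (SE 0.20, edgeR adjusted p = 0.990). With the replicate block it was 0.68 in the late gate (SE 0.12, adjusted p = 0.00806) and 0.23 in the early gate (SE 0.12, adjusted p = 0.494). The blocked late call was lost without late control replicate 2 (adjusted p = 0.0684), late sgStat5 replicate 1 (0.0863) or late sgStat5 replicate 2 (0.0545). Over both gates the fold change was 0.44 (SE 0.14, edgeR adjusted p = 0.199), and 0.45 with the block (SE 0.08, adjusted p = 0.00917), called in 8 of 8 blocked fits with a library left out.

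STAT4, the mediator of IL-12 signals, and STAT6, that of IL-4 signals, gave no called guide effect. Stat4 stood at 24.5 and 16.8 FPKM in late sgStat5 and 23.6 and 17.0 in late control libraries, and at 14.6 and 12.7 in early sgStat5 and 13.4 and 11.9 in early control libraries. Its log2 fold change with sgStat5 was -0.05 in the late gate (SE 0.22, edgeR adjusted p = 0.967) and 0.10 in the early gate (SE 0.22, edgeR adjusted p = 1). Its sgStat5 and control ranges overlapped in both gates, and its replicates differed more than its guide arms.

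Stat6 stood at 23.5 and 22.6 FPKM in late sgStat5 and 22 and 19.6 in late control libraries, and at 22.3 and 21.9 in early sgStat5 and 22 and 21.9 in early control libraries. Its log2 fold change with sgStat5 was 0.09 in the late gate (SE 0.09, edgeR adjusted p = 0.755) and 0.005 in the early gate (SE 0.09, edgeR adjusted p = 1). It was the member that varied least over the 8 libraries.

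Counted together, 3 of the 6 genes were called with sgStat5 in the late gate, where 1.71% of all tested genes were called. In the early gate 2 of 6 were called against 0.269% of all genes, and over both gates 3 of 6 against 2.88%. With the replicate block these counts were 4 of 6 in the late gate against 8.22%, 3 of 6 in the early gate against 2.33% and 4 of 6 over both gates against 10.6%. Of the called members, 2 in each count were the targets of the guides. The summed mast, megakaryocyte and erythroid markers were higher in sgStat5 than in control libraries without overlap in both gates (561 to 568 against 346 to 441 CPM late, 1350 to 1750 against 1040 to 1250 CPM early). In the early gate the myeloid and dendritic markers were also higher in sum (146 to 172 against 107 to 126 CPM) and the NK and innate lymphoid markers lower (398 to 444 against 494 to 571 CPM). A sum follows its most abundant genes. The median log2 fold change in the early gate was 0.42 for the NK and innate lymphoid markers, against the direction of their sum. It was 0.002 for the mast, megakaryocyte and erythroid markers (0.16 in the late gate) and 0.36 for the myeloid and dendritic markers. Without the block, no marker of these lists was called with sgStat5 in either gate. The part of these cells in the guide effects on Stat3, Stat2, Stat5a and Stat5b was not tested.

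Whether the guide effects differed between the gates was tested directly. Of the 6 genes 0 were called, and 0% of all genes (0 of 13775, with or without the block) were called by edgeR, while 302 genes had an unadjusted p under 0.05 (814 with the block) and DESeq2 called 2. The log2 difference, late minus early, was largest for Stat2 at 0.45 (SE 0.28, edgeR adjusted p = 1, and 0.748 with the block). It was 0.21 for Stat3 (SE 0.11), 0.14 for Stat5a (SE 0.11), 0.09 for Stat6 (SE 0.12), -0.02 for Stat5b (SE 0.14) and -0.16 for Stat4 (SE 0.31). A larger response of Stat2 or Stat3 after commitment was therefore not shown.

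**Figure D2:**
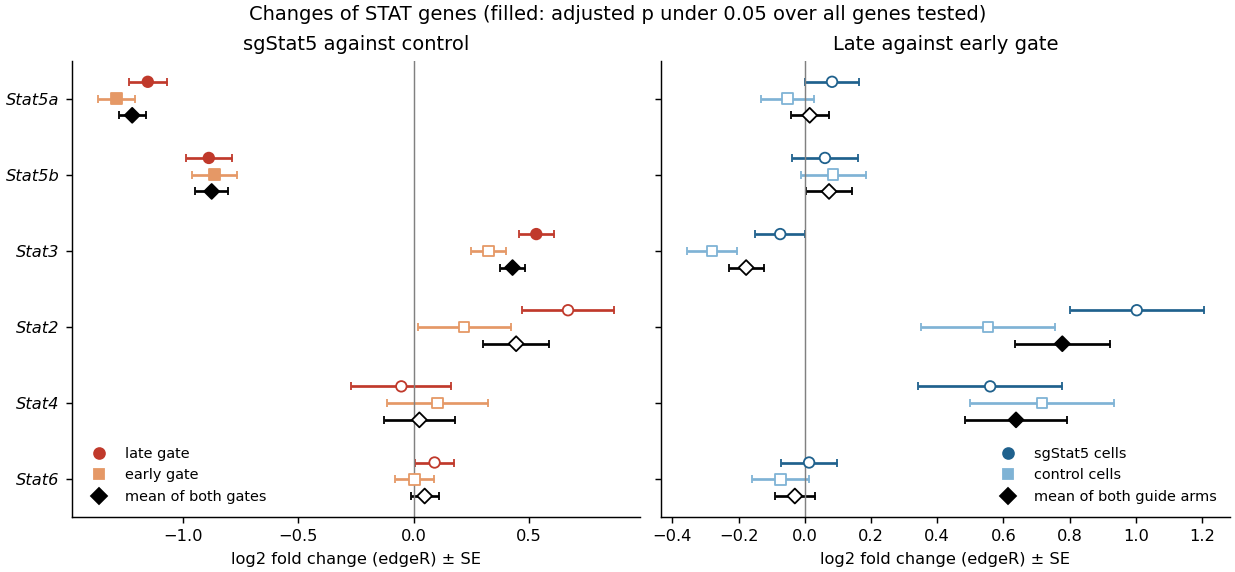
Log2 fold changes from edgeR with their standard errors for the 6 STAT genes, with sgStat5 against control on the left and the late against the early gate on the right, and filled symbols where the adjusted p was under 0.05. On the left Stat5a and Stat5b lie below 0 and Stat3 above it, and on the right Stat2 and Stat4 lie above 0.

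The order of levels was compared per length, in FPKM. In late control libraries Stat5a was highest (48.6 ± 2.77 FPKM, SD, n = 2), followed by Stat5b (38.9 ± 2.68) and Stat3 (37.9 ± 0.267), whose libraries overlapped. Stat6 (20.8 ± 1.70) and Stat4 (20.3 ± 4.71) overlapped as well, and Stat2 was lowest (8.54 ± 2.25). In early control libraries the order was Stat5a (50.8 ± 1.10), Stat3 (46.2 ± 0.984), Stat5b (36.8 ± 0.150), Stat6 (22 ± 0.0813), Stat4 (12.7 ± 1.08) and Stat2 (5.84 ± 0.512), with no overlap between neighbours.

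With sgStat5 the order was another. Stat3 led in late sgStat5 libraries (56.9 ± 1.24 FPKM, SD, n = 2), and Stat6 (23.1 ± 0.612), Stat5a (22.9 ± 1.37), Stat5b (21.9 ± 2.21) and Stat4 (20.7 ± 5.44) overlapped, with Stat2 lowest (14.2 ± 2.22). Stat3 also led in early sgStat5 libraries (58.0 ± 4.02), ahead of Stat6 (22.1 ± 0.293), Stat5a (20.9 ± 0.660) and Stat5b (20.3 ± 1.68), of which the Stat5 copies overlapped, and of Stat4 (13.6 ± 1.37) and Stat2 (6.83 ± 0.463). For Stat3, Stat4 and Stat5a the FPKM table uses another transcript than the count table. For this reason levels between genes depend on the transcript chosen. Guide and gate effects in FPKM and CPM were close but could differ in sign where they were small. In late replicate 1, Stat4 with sgStat5 stood at 104% of control in FPKM and 97.3% in CPM.

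The 6 FPKM values summed to 167 and 152 in late sgStat5, 185 and 165 in late control, 148 and 136 in early sgStat5 and 174 and 175 in early control libraries. The 2 Stat5 genes made up 28.3 and 27.8% of that sum in late sgStat5, 49.4 and 50.6% in late control, 29.0 and 29.1% in early sgStat5 and 49.9 and 50.7% in early control libraries. Stat3 made up 33.5 and 38.0% in late sgStat5, 20.4 and 23.1% in late control, 41.2 and 40.6% in early sgStat5 and 26.2 and 26.8% in early control libraries. Stat3 thus exceeded both Stat5 genes together in every sgStat5 library, by a ratio of 1.18 and 1.37 in the late and 1.42 and 1.39 in the early gate. In control libraries the ratio was 0.413 and 0.456 in the late and 0.524 and 0.530 in the early gate.

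**Figure D3:**
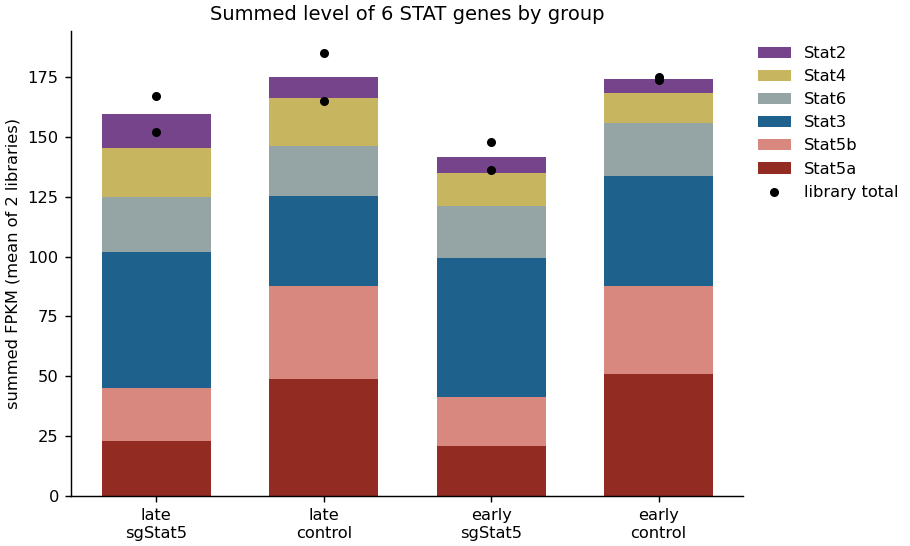
Stacked mean FPKM of the 6 STAT genes in late sgStat5, late control, early sgStat5 and early control groups, with black points for the sum in each of the 2 libraries of a group. The Stat5a and Stat5b segments are smaller and the Stat3 segment is larger in both sgStat5 groups than in the control group of the same gate.

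The late and early gates were compared next, for the stage of commitment. In the test over both guide arms, Stat2 was higher in the late gate by a log2 fold change of 0.78 (SE 0.14, edgeR adjusted p = 0.0259) and Stat4 by 0.64 (SE 0.15, edgeR adjusted p = 0.0440). Within each guide arm the late libraries lay above the early libraries for both genes, without overlap. Across the arms Stat2 overlapped, since late control replicate 2 (6.95 FPKM) lay below early sgStat5 replicate 1 (7.16 FPKM). These were 2 of 6 members, against 11.3% of all tested genes. Stat3 was lower in the late gate by a log2 fold change of -0.18 (SE 0.05, edgeR adjusted p = 0.0697), and was called with the replicate block (-0.18, adjusted p = 0.0207), in which 3 of 6 members and 33.6% of all genes were called. The blocked Stat3 call held in 3 of 8 fits with a library left out, and was lost without early control replicate 1 (adjusted p = 0.0811), early control replicate 2 (0.0622), late control replicate 1 (0.0917), early sgStat5 replicate 1 (0.107) or late sgStat5 replicate 1 (0.102). Stat5a (0.01), Stat5b (0.07) and Stat6 (-0.03) were not called.

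Within sgStat5 cells the late minus early difference was 1.003 for Stat2 (SE 0.20, edgeR adjusted p = 0.0666) and 0.56 for Stat4 (SE 0.22, edgeR adjusted p = 0.180). Within control cells it was 0.55 for Stat2 (SE 0.20, edgeR adjusted p = 0.294) and 0.72 for Stat4 (SE 0.22, edgeR adjusted p = 0.253). Of the 6 members 0 were called in either arm, where 0.973% of all genes were called in sgStat5 and 0.0145% in control cells. Unadjusted, p was under 0.05 in edgeR for 2 of 6 members and 3305 of 13775 genes in sgStat5 cells, and for 3 of 6 members and 2049 genes in control cells, at 0.00154 for Stat2 and 0.0364 for Stat4 in sgStat5 cells and at 0.0281 for Stat2, 0.0130 for Stat4 and 0.00704 for Stat3 in control cells. DESeq2 called 1 member and 1684 genes in sgStat5 cells, and 2 members and 578 genes in control cells.

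With the replicate block, Stat2 (0.99, adjusted p = 0.00104) and Stat4 (0.54, adjusted p = 0.0114) were called in sgStat5 cells, which is 2 of 6 against 22.8% of all genes. In control cells Stat2 (0.54, adjusted p = 0.0245), Stat4 (0.70, adjusted p = 0.00872) and Stat3 (-0.28, adjusted p = 0.0335) were called, which is 3 of 6 against 10.9%. Without the block, the call over both arms was lost for Stat2 when either early control, either early sgStat5 or late sgStat5 replicate 1 was left out (edgeR adjusted p = 0.0725 to 0.0920). For Stat4 it was lost when either early control, either early sgStat5, late control replicate 1 or late sgStat5 replicate 1 was left out (edgeR adjusted p = 0.104 to 0.129). With the block both were called over both arms in 8 of 8 such fits. Within the arms the blocked calls held less often. In sgStat5 cells Stat2 was called in 8 of 8, and Stat4 in 6 of 8, lost without early sgStat5 replicate 1 (adjusted p = 0.115) or late sgStat5 replicate 1 (0.127). In control cells Stat4 was called in 6 of 8, lost without early control replicate 1 (adjusted p = 0.114) or late control replicate 1 (0.105). Stat2 was called there in 5 of 8, lost without early control replicate 1 (adjusted p = 0.247), early control replicate 2 (0.0698) or late control replicate 1 (0.297). Stat3 was called there in 2 of 8 (adjusted p = 0.0363 to 0.325), those without early sgStat5 replicate 1 or 2.

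Stat2, Stat4, Stat5a and Stat5b were higher in replicate 1 than in replicate 2 in all 4 groups. On the log2 scale of CPM the difference was 0.09 to 0.54 for Stat2, 0.14 to 0.51 for Stat4, 0.006 to 0.11 for Stat5a and 0.04 to 0.19 for Stat5b. Bcl11b, whose reporter set the gates, was higher in replicate 1 in all 4 groups as well. Markers of other cell types moved with the gate. The 13 myeloid and dendritic markers summed to 36.1 to 63.9 CPM in late sgStat5, 28.9 to 52.0 in late control, 146 to 172 in early sgStat5 and 107 to 126 in early control libraries, with Siglech at 0 in late sgStat5 and Elane at 0 in late control libraries. The 10 NK and innate lymphoid markers summed to 160 to 234 CPM in late sgStat5, 184 to 306 in late control, 398 to 444 in early sgStat5 and 494 to 571 in early control libraries, with none at 0. The 10 mast, megakaryocyte and erythroid markers summed to 561 to 568 CPM in late sgStat5, 346 to 441 in late control, 1350 to 1750 in early sgStat5 and 1040 to 1250 in early control libraries, with Fcer1a and Pf4 at 0 in both late groups and in early sgStat5, where Hba-a1 was also at 0.

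The 8 B-cell markers summed to at most 17.1 CPM in any library, with Ms4a1 at 0 in every group. The 12 stromal markers summed to 261 to 562 CPM in late sgStat5, 234 to 610 in late control, 121 to 338 in early sgStat5 and 151 to 379 in early control libraries, with Lum at 0 in every group. The part of these cells in the Stat2 and Stat4 differences was not tested.

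The genes upstream of the STATs were read from lists of kinases and receptors. Of the 4 JAK genes, 1 was called with sgStat5 in the late gate, where Jak3, the kinase of the common gamma chain, rose by 0.98 (SE 0.16, edgeR adjusted p = 0.0332). The median log2 fold change of the 4 was 0.27, against -0.02 over all tested genes, of which 1.71% were called, and 8.22% with the block. With the replicate block Jak1, which pairs with most cytokine receptors, rose by 0.29 as well (adjusted p = 0.0212). In the early gate Jak3 was at 0.74 without a call, and rose by 0.72 with the block (adjusted p = 0.00570).

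The next list held 9 genes, for receptors that use the common gamma chain and for Crlf2, which pairs with the IL-7 alpha chain instead. Of these 9, 2 were called in the late gate and 1 in the early gate, against 1.71% and 0.269% of all genes. Il7r, the alpha chain for IL-7, rose by 1.53 in the late gate (SE 0.15, edgeR adjusted p = 0.00596) and by 1.58 in the early gate (SE 0.15, edgeR adjusted p = 0.0163). Il2ra, which encodes CD25 and was itself part of both sort gates, fell by 0.89 in the late gate (SE 0.14, edgeR adjusted p = 0.0352). The list's median log2 fold change was 0.06 in the late and -0.19 in the early gate. Over both gates Il2rb, the beta chain for IL-2 and IL-15, fell by 1.51 (edgeR adjusted p = 0.0138), and with the block Il4ra, the IL-4 chain that docks STAT6, fell by 1.67 (adjusted p = 1.7e-05). Over both gates with the block 3 of the 9 rose (Il7r, Il2rg and Il15ra) and 3 fell (Il2ra, Il2rb and Il4ra), against 10.6% of all genes called.

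Among 9 tested receptor genes, those of the gp130 and IL-12 families and Il10ra, 2 were called over both gates. Of all tested genes 2.88% were called over both gates, and 10.6% with the block. Il6st, which encodes gp130 and docks STAT3, rose by 0.69 (SE 0.12, edgeR adjusted p = 0.0324), and Il12rb2, the IL-12 chain that docks STAT4, rose by 0.57 (SE 0.09, edgeR adjusted p = 0.0174). The list's median was 0.52, against -0.01 over all tested genes, and with the block 4 rose and 1 fell. Of 5 tested interferon receptor genes, Ifngr1, the ligand-binding chain for interferon gamma, was called over both gates and fell by 0.78 (SE 0.14, edgeR adjusted p = 0.0311), and with the block 2 fell. Between gates Ifngr1 (1.37), Ifngr2 (0.81), Ifnar1 (0.68) and Ifnar2 (0.45) were higher in the late gate over both arms (edgeR adjusted p = 0.0109 to 0.0376), where 11.3% of all genes were called. Among 8 tested myeloid and hormone receptor genes, 1 was called over both gates, and Csf2rb, the beta chain shared by GM-CSF, IL-3 and IL-5, fell by 1.37 (SE 0.21, edgeR adjusted p = 0.0199).

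Inhibitors and partners of STATs were read in the same way, against 2.88% of all genes called over both gates and 10.6% with the block. Of 8 SOCS genes, 1 was called over both gates, where Socs2 fell by 2.24 (SE 0.28, edgeR adjusted p = 0.00861). With the block 4 were called: Cish, the classical STAT5-induced inhibitor, fell by 2.68 (adjusted p = 0.000246), Socs2 fell by 2.29 (adjusted p = 4.26e-05), Socs1 fell by 0.50 (adjusted p = 0.0156), and Socs3, the inhibitor that acts on gp130, rose by 1.13 (adjusted p = 0.000964). Of the 4 PIAS genes, whose products restrain STATs in the nucleus, 0 were called over both gates (edgeR adjusted p = 0.328 for Pias2 to 0.951 for Pias4), as were 0 of 6 STAT and JAK phosphatase genes (edgeR adjusted p = 0.136 for Ptpn1 to 0.886 for Dusp22). With the block the phosphatase gene Ptpn1 fell by 0.33 (adjusted p = 0.0359). Of 9 partner genes 0 were called over both gates without the block. Irf9, the DNA-binding partner of STAT2, was at 0.87 (edgeR adjusted p = 0.0501), and rose by 0.87 with the block (adjusted p = 0.00112), as did Nmi, an interactor of STATs, by 0.32 (adjusted p = 0.0391). It was higher in the late gate over both arms by 0.72 (edgeR adjusted p = 0.0440).

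Genes associated with particular STATs, not all of them as induced genes, were counted next, over both gates. Of 27 interferon-response genes, 7 were called and all 7 rose, against 2.88% of all genes, with a list median of 1.16 on the log2 scale against -0.01 over all tested genes. They were Zbp1 (2.69), Gbp2 (2.48), Usp18 (1.65), Isg15 (1.40), Irf7 (1.38), Gbp3 (1.12) and Irf1 (0.95). With the block 23 were called, all higher, against 10.6% of all genes. Of the 27, 12 were higher in the late gate over both arms, where 11.3% of all genes were called, with a list median of 0.95 against 0.03. Of 12 genes associated with STAT5, 8 were called, against 2.88% of all genes. Lta (-3.18), Socs2 (-2.24), Bcl2 (-1.48), of which all cells also carried a transgene, Csf2rb (-1.37), Bcl2l1 (-1.02), Il2ra (-0.72) and Osm (-0.70) fell, and Bcl6 (2.22), a repressor that competes with STAT5 at shared sites, rose. Their median was -1.20, and with the block 1 rose and 11 fell, against 10.6% of all genes called.

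Of 14 genes associated with STAT3, 4 were called and rose. They were Bcl6 (2.22), Bcl3 (2.12), Icam1 (0.76) and Il6st (0.69), with a list median of 0.16, against 2.88% of all genes called. In the late gate 3 rose and Pim1, a kinase gene, fell by 0.57 (SE 0.10, edgeR adjusted p = 0.0472). With the block 5 rose over both gates and Pim1 fell by 0.32 (adjusted p = 0.00515). Of 8 genes associated with STAT4, Il12rb2 (0.57) rose and Map3k8 (-2.01) fell, against 2.88% of all genes called. Of 5 tested genes associated with STAT6, Ccr4 (-1.78) fell, and with the block 1 rose and 2 fell, where 10.6% of all genes were called. Bcl6, Pim1, Il4ra, Il6st, Il12rb2, Socs2, Il2ra and Csf2rb each stand in more than 1 list. The lists were chosen with results of these libraries known, so their counts are a description.

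Genes beside the members were described as well, since 3 members are neighbours of each other. In the 100 kb on either side of the Stat5b, Stat5a and Stat3 locus, 8 other genes were tested, and 2 of them were called over both gates, against 2.88% of all genes. Dhx58, which encodes the RNA sensor LGP2, stood at 72.8 and 72.1 CPM in late sgStat5, 37.2 and 31.5 in late control, 36.5 and 43.9 in early sgStat5 and 19.8 and 28.6 in early control libraries. Ghdc stood at 9.94 and 9.61 CPM in late sgStat5, 2.26 and 2.84 in late control, 9.53 and 4.99 in early sgStat5 and 4.05 and 3.47 in early control libraries. For both genes the sgStat5 libraries lay above the control libraries of the same gate without overlap.

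Over both gates Dhx58 rose by 0.90 (SE 0.14, edgeR adjusted p = 0.0194) and Ghdc by 1.44 (SE 0.25, edgeR adjusted p = 0.0308). Dhx58 was also higher in the late than in the early gate over both arms, by 0.68 (SE 0.14, edgeR adjusted p = 0.0317). The part of their position in these changes was not tested. Kat2a, Hspb9, Rab5c, Kcnh4, Ptrf and Atp6v0a1 were not called with or without the block. Ghdc and Stat5b lie next to each other, with the closest ends at 100770957 and 100780731, and Kat2a and Rab5c, which lie between Dhx58 and Ghdc, were at -0.07 and -0.03. Near the other members, Pan2 beside Stat2 rose by 0.52 with the block (adjusted p = 0.00979) and Nabp1 beside Stat4 was higher in the late gate by 1.10 (SE 0.16, edgeR adjusted p = 0.0171). Nab2, which overlaps Stat6, was not called.

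**Figure D4:**
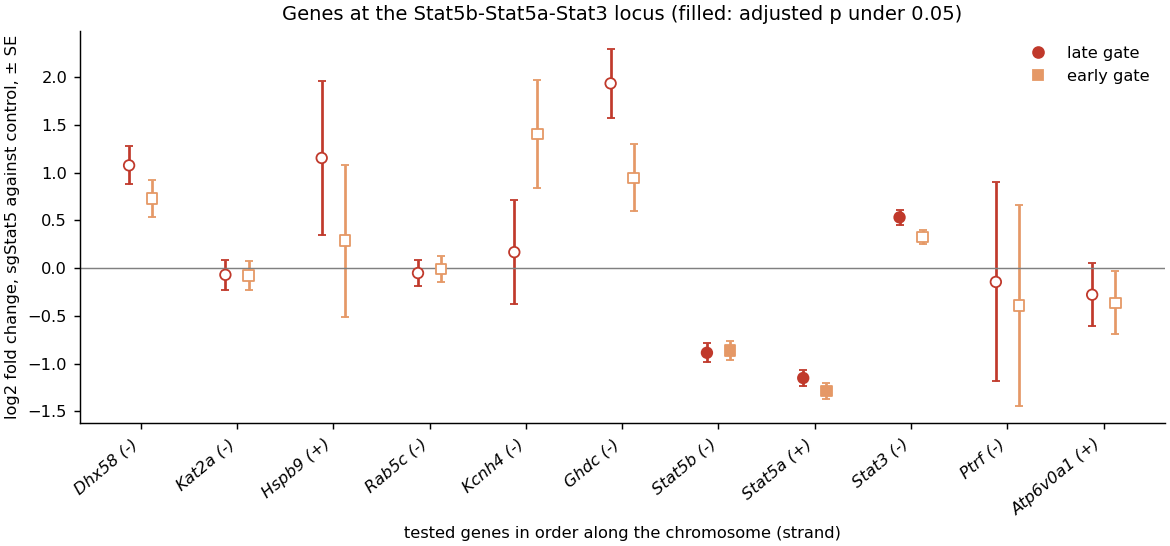
Log2 fold change with sgStat5 against control, with its standard error, of the 11 tested genes in order along the Stat5b, Stat5a and Stat3 locus, with circles for the late gate, squares for the early gate and filled symbols where the edgeR adjusted p was under 0.05. Stat5b and Stat5a lie below 0 in both gates, while Stat3, Dhx58 and Ghdc lie above 0.

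The genes whose pattern over the 8 libraries was most like that of a member were found by the root mean square difference of log2 CPM, each gene centred on its own mean. For Stat5a these were Pcx (0.135), Cpne2 (0.147) and Jund (0.181), with Stat5b next (0.182). For Stat5b they were Sec24d (0.114), Lrrc8c (0.121) and Lfng (0.143). Stat3 was most like Rab43 (0.0546), Prr13 (0.075) and Sox4 (0.0759). Stat2 was most like Tcf12 (0.0591), Hivep2 (0.0829) and Lpxn (0.0859), and Stat4 like Yeats2 (0.0634), Mlh3 (0.0739) and Arhgap9 (0.0752).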

How the data were processed

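Per the submitters' processing notes, reads were handled with bcl2fastq 1.8.4, STAR 2.4.0 and RSEM 1.2.25 on GRCm38/mm10. Per the file headers, HOMER then gave the deposited counts (unadjusted tags in the exons of a single transcript for each gene) and the authors' FPKM values, scaled to transcript length and total mapped tags. The kit and headers give no strand. Genes were kept by filterByExpr (13775 of 24506), scaled by TMM and tested with the quasi-likelihood F-test of edgeR 4.0.16 (R 4.3.3), two-sided, in all 8 libraries with 1 mean per group and Benjamini-Hochberg adjustment over all tested genes within each of 7 comparisons. SE was derived from the log2 fold change and F, as |log2 fold change| over √F. CPM values use TMM library sizes. The Stat5a to Stat5b ratio and sum of FPKM were tested by exact permutation within gates.

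Groups and replicate numbers came from the labels. Deviations from the group mean of libraries with the same number correlated across genes in all 6 pairs of groups (0.421 to 0.578), so the numbers were taken to pair the libraries, which the labels do not state. Residual degrees of freedom were 4, and 3 with the replicate number as a block. Alternatives were RLE size factors, no filter, at least 5 CPM in 2 libraries, DESeq2 1.42.0, the replicate block, only the libraries compared, limma 3.58.1 on log2(FPKM + 1) or log2(FPKM + 0.1) where FPKM reached 1 in 2 libraries, limma without that filter, and leaving out each library, also with the block (the last chosen after seeing the data). The edgeR procedure was tested on simulated data. There the fits with the block held more false calls than the threshold allows in every comparison except the guide effect in the early gate. Calls made only with the block are therefore the less firm ones.

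All 6 STAT genes were named, with called genes of the lists (the largest where a list had many), tested genes within 100 kb of the chromosome 11 locus, the nearest genes beside the others, and the 3 genes most like each called member. The members and lists were chosen with earlier results of these data known. 1 further gene that the same rule selects is not reported here. Motifs and shared runs were found by exact match.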

Additional observations from a re-analysis of the deposited data

Results flagged for a closer look

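The guide effect on Stat4 differed in sign between the gates. In CPM, Stat4 in the late gate was lower in the sgStat5 than in the control library of both replicate pairs (97.3 and 95.2% of it), and in the early gate it was higher in both pairs. The FPKM table did not share this, since late replicate 1 stood there at 104% of its control (24.5 against 23.6 FPKM). The difference of the log2 fold changes, late minus early, was -0.16 (SE 0.31, edgeR adjusted p = 1), so it was smaller than its error.

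The gate effect on Stat5a differed in sign between the guide arms. In CPM, Stat5a was higher in the late than in the early library of both sgStat5 pairs, and lower in both control pairs, of which replicate 1 stood at 99.9% of the early library. In FPKM that pair had the other sign (50.5 late against 50.0 early). The difference, sgStat5 minus control, was 0.14 on the log2 scale (SE 0.11, edgeR adjusted p = 1). Neither difference was called, and no cause was tested.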

How the results depend on the processing

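No fold change of a called member reversed in any alternative. The number of STAT genes called moved. With only the libraries compared it was 1 in the early gate and 0 in the late gate, with too few libraries to share the spread. With limma on log2(FPKM + 1) without a filter it was 1 for the early guide effect and 0 for the late against early gate over both arms. For the late against early gate, DESeq2 gave 2 in control and 1 in sgStat5 cells (578 and 1684 of 13775 genes), no low-count filter gave 1 in sgStat5 cells (760 of 17498 genes), and the replicate block gave 3 in control and 2 in sgStat5 cells. Leaving out 1 library at a time gave 0 to 2 for the early guide effect, 1 to 2 for the late guide effect, 2 to 3 for that over both gates, 0 to 1 for the gates in sgStat5 cells and 0 to 2 over both arms. With the block these were 0 to 3 for the gates in control cells and 1 to 2 in sgStat5 cells. Over all genes the block raised the calls with sgStat5 to 321 from 37 in the early and to 1132 from 235 in the late gate. DESeq2 gave 247 and 629. The log2 ratio of Stat5a to Stat5b stayed between -0.36 and -0.31, and the summed change between -1.07 and -0.98, with 1 library left out. With differences taken within replicate pairs, as a block, these were -0.34 and -1.03 (exact permutation p = 0.125, the smallest possible). With 2 libraries a group, differences as small as that of Stat6 cannot be separated from the spread.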
